A study of Mus musculus with 32 samples.

Results

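The 8 hedgehog pathway genes described here are the ligand genes Shh and Ihh, the receptor gene Ptch1, the signal transducer gene Smo, the inhibitor gene Hhip and the transcription factor genes Gli1, Gli2 and Gli3. They were chosen by name, by matching Ensembl identifiers to symbols, and make up 8 of the 55806 gene identifiers in the 4 count tables of the series. The study used RNA sequencing to ask how mutations of ENL, a chromatin reader encoded by Mllt1 and mutated in Wilms tumor, change gene expression in the developing mouse kidney. It holds 32 libraries in 11 groups. Whole E18.5 kidneys were taken from Six2-TGCtg/+;Enl+/+ embryos (ENL-WT, n = 2), Six2-TGCtg/+;EnlT1/+ embryos (ENL-T1, n = 2) and Six2-TGCtg/+;EnlT3/+ embryos (ENL-T3, n = 2), and from Foxd1GC/+;Enl+/+ and Foxd1GC/+;EnlT1/+ embryos (n = 3 each). Cells carrying the tdTomato reporter of a Cre lineage were sorted from Six2-TGCtg/+;Enl+/+ and Six2-TGCtg/+;EnlT1/+ kidneys at E14.5 and at E18.5 (n = 3 each), and from Foxd1GC/+;Enl+/+ and Foxd1GC/+;EnlT1/+ kidneys at E18.5 (n = 4 each). All groups carried a Cre allele, controls included. Six2-TGC is a transgene that places a GFP-Cre fusion under the Six2 promoter, active in nephron progenitors, so that their descendants in the nephron carry the mutation. Foxd1GC is a knock-in of GFP-Cre that abolishes a Foxd1 allele, so both ENL-WT and ENL-T1 cells of that lineage, the stroma, had a single working Foxd1 allele. The mutant Enl alleles were heterozygous and expressed from the endogenous promoter after Cre recombination.

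Hedgehog ligands are secreted proteins that bind Patched receptors on neighbouring cells. Patched otherwise holds Smoothened inactive, and its release changes the balance of the Gli proteins from repressors to activators. Gli1, Ptch1 and Hhip are themselves transcribed in response to the signal, and Ptch1 and Hhip bind the ligand and so restrict its range. In the kidney, Shh is known from the collecting duct and ureteric epithelium, where the surrounding mesenchyme that forms smooth muscle receives it, and a truncated form of GLI3 causes renal malformation in people.

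Reads per library numbered 67137194 to 79343015 in Foxd1 kidneys, 106005614 to 157266455 in Six2 kidneys, 76510702 to 137888792 in sorted Six2 cells and 2557443 to 3508381 in sorted Foxd1 cells, counting those assigned to genes. Levels are counts per 1000000 (CPM) after scaling by trimmed mean of M values (TMM), and a floor of 3 counts corresponds to at most 0.0446 CPM in 3 of the tables but to 0.841 to 1.22 CPM in sorted Foxd1 cells. Six2 was at 805.7 to 932.7 CPM in sorted E14.5 ENL-WT cells of the Six2 lineage, and Foxd1 and Pdgfra were at 57.5 to 77.3 and 340.9 to 410.8 CPM in sorted ENL-WT cells of the Foxd1 lineage. Foxd1 was higher still in sorted E14.5 ENL-WT cells of the Six2 lineage, but those cells differ in stage, run and number of working Foxd1 alleles. At E18.5, all 7 stromal markers, Foxd1 included, were higher in sorted Foxd1 than in sorted Six2 ENL-WT cells, by the lineage thresholds given below. Mllt1 was measured at 27.2 to 232.9 CPM in the sorted cells and at 76.5 to 125 CPM in the kidneys, and gene counts cannot separate its mutant and wild-type transcripts. By Xist and Ddx3y, the Six2 ENL-T1 kidneys were both male and the ENL-T3 kidneys both female, with 1 of each sex in ENL-WT, all Foxd1 kidneys were female, and all sorted Foxd1 libraries were male. Every group of sorted Six2 libraries held both sexes.

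In the mm10 (GRCm38) genome, Shh (ENSMUSG00000002633) lies at chr5:28456815-28467256 on the minus strand and Ihh (ENSMUSG00000006538) at chr1:74945315-74951672 on the minus strand. Ptch1 (ENSMUSG00000021466) lies at chr13:63508328-63573598 on the minus strand, Hhip (ENSMUSG00000064325) at chr8:79965851-80058006 on the minus strand and Smo (ENSMUSG00000001761) at chr6:29735503-29761365 on the plus strand. Gli1 (ENSMUSG00000025407) lies at chr10:127329882-127341974 and Gli2 (ENSMUSG00000048402) at chr1:118834132-119053619, both on the minus strand, and Gli3 (ENSMUSG00000021318) at chr13:15463235-15730026 on the plus strand. The counting ignored strand, and 28.3% of the exon length of Shh and 6.55% of that of Gli1 is shared with other annotated genes, so reads there cannot be assigned to a strand. The shared part was at most 1.96% for the other members.

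The promoter stretches of 3 members are shown because Ihh, Hhip and Gli2 carry the largest genotype or lineage differences described below among the members with an entry in the RefSeq-based promoter table. Each is the 250 bases before the annotated transcription start, read 5′ to 3′ on the gene's own strand in GRCm38.p6, at chr1:74951673-74951922 for Ihh, chr8:80058009-80058258 for Hhip and chr1:119053620-119053869 for Gli2, all on the minus strand. Capitals mark the GC box GGGCGG or its reverse complement.
Ihh: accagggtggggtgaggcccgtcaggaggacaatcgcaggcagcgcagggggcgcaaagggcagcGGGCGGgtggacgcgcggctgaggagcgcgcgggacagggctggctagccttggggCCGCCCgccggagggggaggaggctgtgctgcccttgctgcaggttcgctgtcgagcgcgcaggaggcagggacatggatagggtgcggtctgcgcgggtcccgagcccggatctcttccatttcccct
Hhip: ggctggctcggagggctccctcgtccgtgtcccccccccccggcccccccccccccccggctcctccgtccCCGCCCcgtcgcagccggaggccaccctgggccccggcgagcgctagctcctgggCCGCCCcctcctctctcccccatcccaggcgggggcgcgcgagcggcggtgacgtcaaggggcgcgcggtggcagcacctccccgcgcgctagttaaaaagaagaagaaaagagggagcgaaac
Gli2: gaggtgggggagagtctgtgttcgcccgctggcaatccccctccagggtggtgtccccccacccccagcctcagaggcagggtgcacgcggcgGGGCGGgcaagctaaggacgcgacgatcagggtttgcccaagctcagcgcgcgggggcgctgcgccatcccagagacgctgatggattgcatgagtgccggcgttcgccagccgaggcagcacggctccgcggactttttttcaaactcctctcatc
Ihh and Hhip each held 2 GC boxes and Gli2 held 1, and 32.7% of 32851 mouse promoter stretches of the same length held at least 1. The G and C content was 72% for Ihh, 76% for Hhip and 67.2% for Gli2. The GLI consensus GACCACCCA, searched on both strands, had 0 matches in the stretches of Gli2, Gli3, Hhip, Ihh, Ptch1 and Smo, also with 1 mismatch allowed, and occurred in 0.225% of all stretches without a mismatch and in 5.79% with 1.

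Levels between genes were compared as CPM per kilobase of exon in the ENL-WT libraries. Smo was the highest member in all 5 control groups, at 32.9 ± 1.41 CPM per kilobase in Six2 kidneys (SD, n = 2), 44.6 ± 2.68 in Foxd1 kidneys (n = 3), 42.2 ± 0.535 in sorted Six2 cells at E14.5 (n = 3), 34.9 ± 1.42 at E18.5 (n = 3) and 21.9 ± 1.20 in sorted Foxd1 cells (n = 4). Its values did not overlap those of the next member in any group. Ptch1 came next in Six2 kidneys, in sorted E18.5 Six2 cells and in sorted Foxd1 cells, at 12.1 ± 1.04, 12.6 ± 0.774 and 11.2 ± 0.904 CPM per kilobase. Both ligand genes had lower values in sorted cells than in whole kidneys of the same lineage. Shh stood at 1.68 ± 0.427 CPM per kilobase in Six2 kidneys and 1.51 ± 0.0945 in Foxd1 kidneys, but summed to only 5 to 20 counts per group in sorted Six2 cells, and to 6 counts in sorted Foxd1 ENL-WT cells. Ihh reached 11.6 ± 1.15 CPM per kilobase in Foxd1 kidneys, where its values overlapped those of Ptch1, and 4.78 ± 0.928 in Six2 kidneys, and stood at 1.23 ± 0.266 in sorted Six2 cells at E18.5 and 0.370 ± 0.138 in sorted Foxd1 cells. The tables were normalized separately, so these levels are set side by side and not tested across tables.

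**Figure D1:**
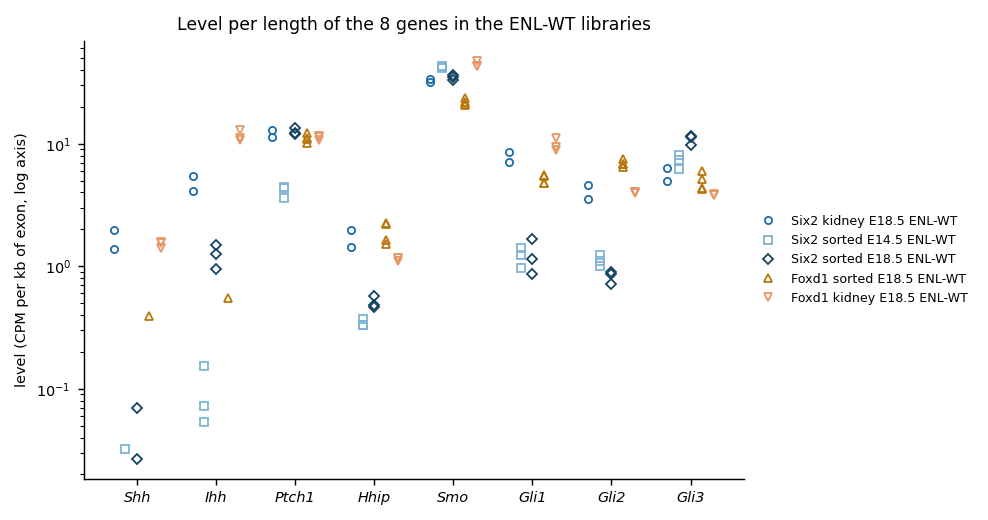
Level of each member in the ENL-WT libraries, in CPM per kilobase of exon on a log axis, with 1 point per library and libraries with 3 counts or fewer not drawn. Smo lies above all other members in each of the 5 control groups, from 21.9 CPM per kilobase on average in sorted Foxd1 cells to 44.6 in Foxd1 kidneys.

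A member was called in a genotype comparison where the edgeR quasi-likelihood test, adjusted by Benjamini-Hochberg over all tested genes, gave an adjusted p under 0.05 and the fold change exceeded 1.5. In Six2 kidneys, 2 of 8 members were lower in ENL-T1 and 2 of 8 lower in ENL-T3, against 4.88% and 5.28% of all tested genes called lower. No member was called higher there, against 2.88% and 4.34% of all genes. Between ENL-T3 and ENL-T1 kidneys 0 of 8 members were called, by DESeq2 as well, with 2 at an unadjusted p under 0.05, and the background was 0.00418% higher and 0% lower. Over all genes of that comparison the calls numbered 1 higher and 0 lower, beside 54 and 17 by DESeq2 and 177 and 44 by the edgeR exact test. The sorted Six2 cells gave the most calls. At E14.5, 3 of 7 tested members were higher in ENL-T1 and 0 lower, against 4.11% and 2.28% of all genes. At E18.5, 3 of 7 were higher and 1 lower, against 6.14% and 5.54%. In the Foxd1 lineage the calls were close to the shares over all genes, and the sorted Foxd1 libraries were the shallowest of the series. Sorted Foxd1 cells had 0 of 6 tested members called, by DESeq2 as well, with 2 at an unadjusted p under 0.05, where 3.63% of all genes were called higher and 2.18% lower. Foxd1 kidneys had 1 of 8 members lower and 0 higher, against 7.53% and 2.65%. Without the fold threshold, 4 of 8 had an adjusted p under 0.05 there, where 3300 genes were higher and 3432 lower of 20145. Shh was too low to be tested in any sorted comparison, and Ihh in those that include sorted Foxd1 cells.

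**Figure D2:**
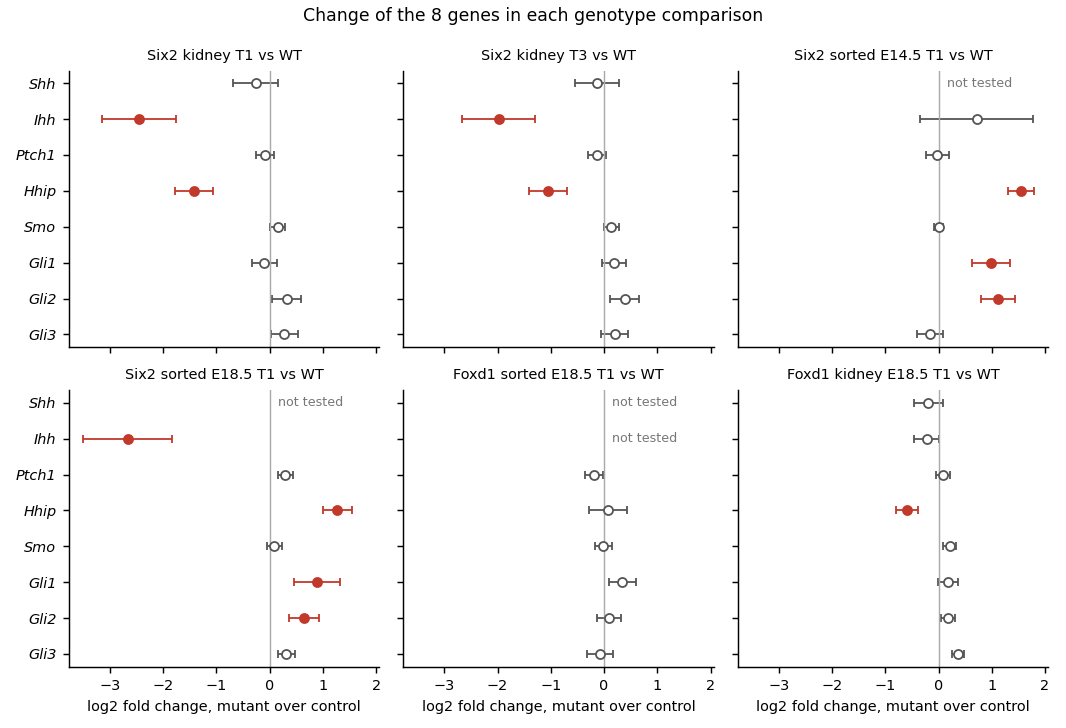
Log2 fold change of each member in the comparisons between genotypes, with bars for 95% confidence intervals and filled red points for members called. Hhip lies below 0 in the kidneys and above 0 in both stages of sorted Six2 cells, from -1.42 in ENL-T1 kidneys of the Six2 cross to 1.55 in sorted E14.5 ENL-T1 cells.

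Ihh, the Indian hedgehog ligand gene, fell in Six2 mutant kidneys. It stood at 16.6 and 12.6 CPM in the 2 ENL-WT kidneys, at 2.26 and 3.08 CPM in ENL-T1 and at 4.79 and 2.59 CPM in ENL-T3. All 4 mutant kidneys lay below both controls. The log2 fold change was -2.45 ± 0.296 (SE) in ENL-T1, a 5.47-fold lower level (edgeR quasi-likelihood test, Benjamini-Hochberg adjusted, adjusted p = 0.00155), and -1.98 ± 0.291 in ENL-T3, 3.95-fold lower (adjusted p = 0.00322, same test). Both comparisons use the same 2 controls. The ENL-T3 and ENL-T1 kidneys overlapped, and their difference was 0.47 on the log2 scale with a 95% interval of -0.22 to 1.16. In whole tissue, fewer Ihh-expressing cells and less Ihh RNA per cell cannot be told apart. Beside this fall, all 6 proximal tubule markers and all 5 podocyte markers fell in both mutants, the former from a summed level of 2423 to 2688 CPM in controls to 388.4 to 481.1 CPM in ENL-T1 and 381.4 to 420.5 CPM in ENL-T3. Their part in the Ihh result was not tested.

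In sorted Six2 cells Ihh differed between the stages. At E14.5 it stood at 0.164, 0.464 and 0.222 CPM in ENL-WT and at 0.466, 0.589 and 0.330 CPM in ENL-T1, groups that overlapped (log2 fold change 0.72, 95% interval -0.34 to 1.78). At E18.5 it stood at 4.51, 3.81 and 2.90 CPM in ENL-WT and at 1.06, 0.276 and 0.400 CPM in ENL-T1. All 3 mutant libraries were below all controls, with a log2 fold change of -2.67 ± 0.386, 6.35-fold lower (edgeR quasi-likelihood test, Benjamini-Hochberg adjusted, adjusted p = 0.000229). Replicate 1 was the highest of the mutants, and without it the log2 fold change was -3.46. In control cells, Ihh was 13.1-fold higher at E18.5 than at E14.5 (log2 fold change 3.71 ± 0.498, adjusted p = 9.76e-06, same test). Kidneys were dissociated with trypsin at E14.5 and with collagenase at E18.5, so stage and dissociation cannot be told apart in any comparison of stages. The ENL-T1 effect itself differed between the stages by -3.38 ± 0.671 on the log2 scale (adjusted p = 0.00693, same test), or by -4.22 without E18.5 ENL-T1 replicate 1. The proximal tubule markers were at 6.42 to 21.5 CPM summed in E14.5 control cells, at 1382 to 1863 CPM in E18.5 control cells and at 450.4 to 491.6 CPM in E18.5 ENL-T1 cells, where 6 of 6 fell. The podocyte markers went at E18.5 from 2762 to 3234 CPM summed in controls to 191.7 to 244.2 CPM in ENL-T1, with 5 of 5 called lower, and the nephron progenitor markers from 440 to 574.3 CPM to 178.2 to 234.7 CPM, with 5 of 5 lower. The part of these markers in the Ihh result was not tested.

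In Foxd1 kidneys, Ihh stood at 34.0, 39.3 and 32.7 CPM in ENL-WT and at 24.7, 30.9 and 35.2 CPM in ENL-T1. The groups overlapped and the gene was not called (log2 fold change -0.22, 95% interval -0.45 to 0.01). All 6 proximal tubule markers were lower in the same ENL-T1 kidneys, 5 of them called, at 1164 to 1497 CPM summed against 2587 to 2709 CPM. In sorted Foxd1 cells, Ihh was at 6, 3, 3 and 2 counts in ENL-WT and 1, 3, 2 and 0 counts in ENL-T1, mostly at or under the floor of 3 counts.

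Shh, the Sonic hedgehog ligand gene, was not called in any kidney comparison. It stood at 3.93 and 5.65 CPM in Six2 ENL-WT kidneys, at 4.16 and 3.83 CPM in ENL-T1 and at 4.16 and 4.59 CPM in ENL-T3. The mutants lay between or near the 2 controls, with log2 differences of -0.26 (95% interval -0.68 to 0.15) and -0.13 (-0.55 to 0.29). In Foxd1 kidneys it stood at 4.00, 4.44 and 4.49 CPM in ENL-WT and at 3.79, 3.86 and 3.67 CPM in ENL-T1. These groups did not overlap, but the difference of -0.19 (95% interval -0.46 to 0.08) missed the threshold. The summed level of the 9 ureteric markers was 698 to 827.6 CPM in Six2 controls. It was 532.1 to 548.3 CPM in ENL-T1, with 3 of 9 called lower, and 490.8 to 546.5 CPM in ENL-T3, with 4 of 9 called lower. In each Six2 mutant 3 of the 9 log2 fold changes were positive and 6 negative. In Foxd1 kidneys the sum moved from 950.6 to 1118 CPM in controls to 707.9 to 774.5 CPM in ENL-T1, with 2 of 9 called lower, 2 positive and 7 negative.

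**Figure D3:**
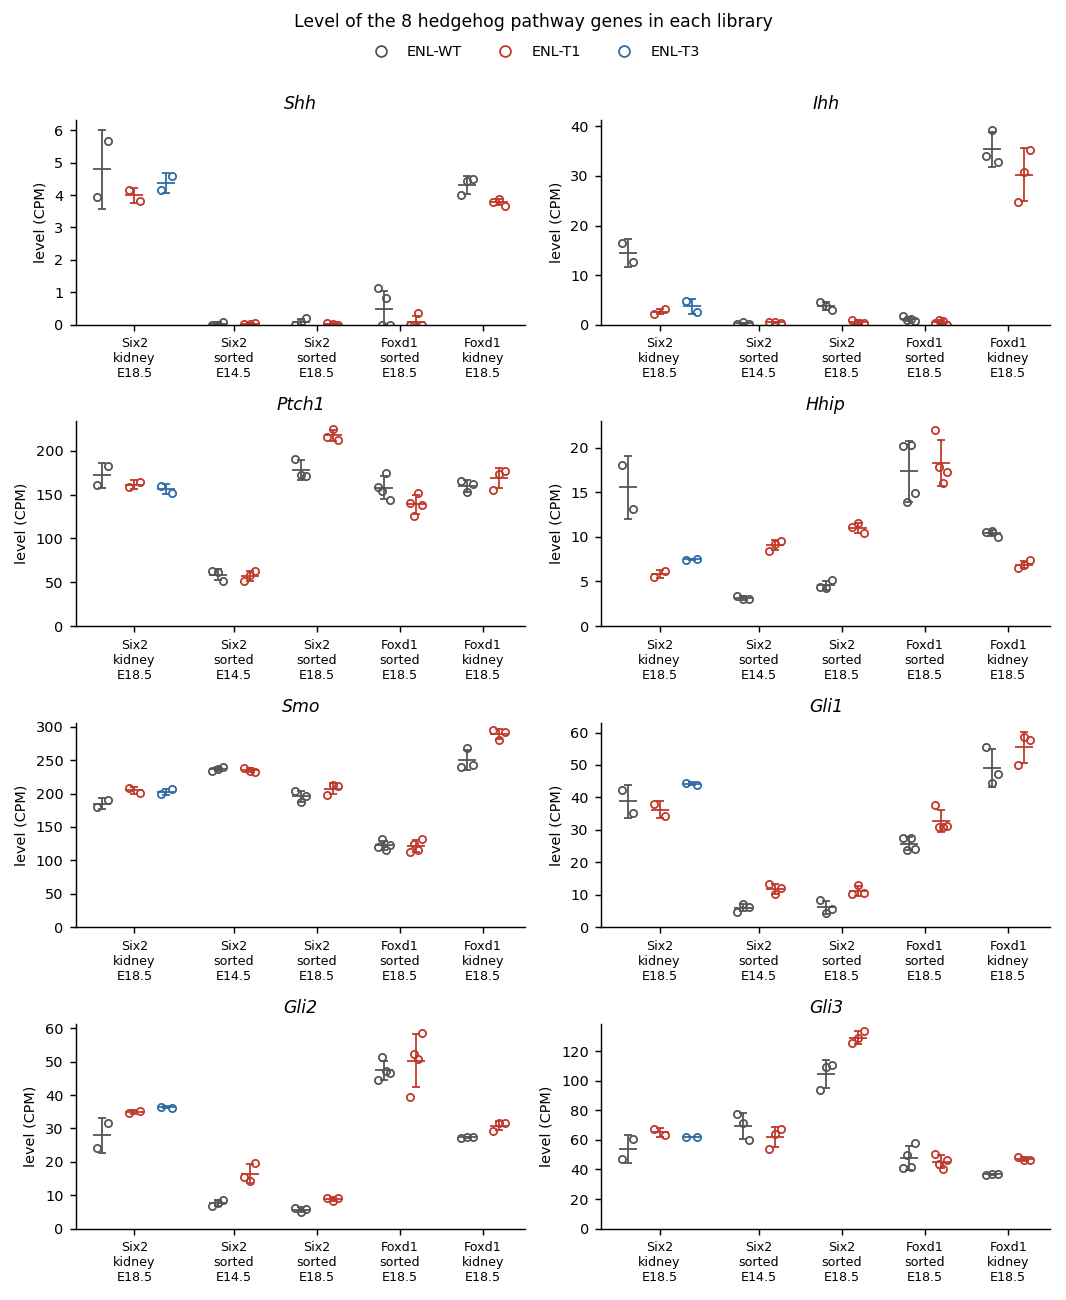
CPM of each member in every library, with 1 circle per library, a dash for the group mean and bars for the SD. Ihh lies at 2.26 to 4.79 CPM in the 4 Six2 mutant kidneys against 12.6 and 16.6 CPM in their controls, and Hhip lies at 8.41 to 11.5 CPM in the 6 sorted Six2 ENL-T1 libraries against 2.99 to 5.17 CPM in their controls.

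Hhip, the gene of a membrane protein that binds hedgehog ligands and keeps them from Patched, was called in 5 of the 6 comparisons of a mutant with its control, but in opposite directions in whole kidneys and in sorted Six2 cells. In Six2 kidneys it stood at 18.01 and 13.1 CPM in controls, at 5.51 and 6.14 CPM in ENL-T1 and at 7.45 and 7.54 CPM in ENL-T3. The mutants lay below both controls, 2.67-fold lower in ENL-T1 (log2 fold change -1.42 ± 0.154, adjusted p = 0.00094, edgeR quasi-likelihood test, Benjamini-Hochberg adjusted) and 2.07-fold lower in ENL-T3 (-1.05 ± 0.152, adjusted p = 0.00301). Foxd1 kidneys showed a smaller fall, from 10.6, 10.7 and 10.01 CPM in ENL-WT to 6.51, 6.81 and 7.36 CPM in ENL-T1. Here the groups did not overlap and the level was 1.51-fold lower (-0.59 ± 0.0953, adjusted p = 0.000386), just past the 1.5-fold threshold. Without ENL-T1 replicate 1 (-0.55), ENL-T1 replicate 2 (-0.58) or ENL-WT replicate 2 (-0.57) it dropped under that threshold, so that no member was called. Smooth muscle markers were lower beside these falls, at 447 to 500.1 CPM summed in Six2 ENL-T1 kidneys against 659.8 to 698.7 CPM in controls, with 2 of 6 called, and at 357.9 to 413.1 CPM in Foxd1 ENL-T1 kidneys against 535.8 to 649.6 CPM, with 4 of 6 called. Their part in the Hhip result was not tested.

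In sorted Six2 cells Hhip rose. At E14.5 it stood at 3.38, 2.99 and 3.00 CPM in ENL-WT and at 8.41, 9.19 and 9.51 CPM in ENL-T1, 2.92-fold higher (log2 fold change 1.55 ± 0.109, adjusted p = 0.000112, edgeR quasi-likelihood test, Benjamini-Hochberg adjusted). At E18.5 it stood at 4.35, 4.23 and 5.17 CPM in ENL-WT and at 11.1, 11.5 and 10.4 CPM in ENL-T1, 2.42-fold higher (1.27 ± 0.126, adjusted p = 8.33e-06). Every mutant library exceeded every control at both stages, and the size of the rise was not shown to differ between them (interaction -0.26, 95% interval -0.62 to 0.09). In sorted Foxd1 cells Hhip was already higher and overlapped between genotypes, at 20.2, 13.9, 20.3 and 14.95 CPM in ENL-WT and 22.0, 17.8, 16.0 and 17.3 CPM in ENL-T1 (log2 fold change 0.08, 95% interval -0.28 to 0.43). The opposite direction in whole kidneys and in sorted Six2 cells is set side by side only, since the 2 tables were normalized separately and the difference was not tested.

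Ptch1, the gene of the ligand receptor, varied more with stage, and with it the dissociation enzyme, than with genotype. In sorted Six2 control cells it rose from 63.2, 61.6 and 51.5 CPM at E14.5 to 191, 173 and 170.9 CPM at E18.5. This was a 3.04-fold difference (log2 fold change 1.602 ± 0.0880, adjusted p = 4.86e-10, edgeR quasi-likelihood test, Benjamini-Hochberg adjusted). Developmental and lineage differences had to exceed a fold of 2 with an adjusted p under 0.01, and 2 of 7 members, Ihh and Ptch1, were called higher at E18.5 and 0 lower, against 24.8% and 20.6% of all tested genes. ENL-T1 cells at E18.5 were above all controls, at 215.9, 225.1 and 212.6 CPM, but the 1.23-fold difference (adjusted p = 0.0056, same test) was under the fold threshold. In the other sets no genotype difference of Ptch1 passed the test. Six2 kidneys ranged from 161.6 to 182.4 CPM in ENL-WT and from 152 to 164.9 CPM in the mutants, and Foxd1 kidneys from 152.7 to 165.5 CPM in ENL-WT and from 155.6 to 177.5 CPM in ENL-T1. Sorted Foxd1 cells ranged from 144 to 174.9 CPM in ENL-WT and from 125.8 to 151.5 CPM in ENL-T1, overlapping groups with a log2 difference of -0.18 (95% interval -0.35 to -0.02) that did not pass adjustment (adjusted p = 0.165).

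Smo, the gene of the Smoothened transducer, was high everywhere and was called in no comparison of genotypes. It ranged from 232.7 to 240.4 CPM over the 6 sorted Six2 libraries of E14.5, with a log2 difference of 0.0019 between genotypes (95% interval -0.08 to 0.08). In E18.5 sorted Six2 cells it ranged from 187.9 to 203.8 CPM in ENL-WT and from 198.1 to 212.1 CPM in ENL-T1. The largest genotype difference was in Foxd1 kidneys. Smo stood there at 240.4, 267.8 and 243.1 CPM in ENL-WT and at 294.8, 279.9 and 292.1 CPM in ENL-T1. The groups did not overlap, and the 1.15-fold difference had an adjusted p of 0.012 by the edgeR quasi-likelihood test, Benjamini-Hochberg adjusted, under the fold threshold. From E14.5 to E18.5, Smo in control cells differed by -0.28 on the log2 scale (adjusted p = 0.000133, same test), also under the fold threshold.

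Gli1, a transcriptional activator whose own level is a common readout of the pathway, rose in sorted Six2 cells. At E14.5 it stood at 4.84, 7.07 and 6.21 CPM in ENL-WT and at 13.3, 10.2 and 11.98 CPM in ENL-T1, 1.98-fold higher (log2 fold change 0.99 ± 0.157, adjusted p = 0.00499, edgeR quasi-likelihood test, Benjamini-Hochberg adjusted). At E18.5 it stood at 8.30, 4.33 and 5.69 CPM in ENL-WT and at 10.3, 12.97 and 10.5 CPM in ENL-T1, 1.85-fold higher (0.89 ± 0.198, adjusted p = 0.00576). The genotypes did not overlap at either stage. In sorted Foxd1 cells all 4 ENL-T1 libraries, at 37.6, 30.9, 30.9 and 31.3 CPM, also lay above the 4 controls, at 27.5, 23.9, 27.7 and 24.1 CPM, but the 1.27-fold difference did not pass adjustment (log2 fold change 0.34, 95% interval 0.09 to 0.59, adjusted p = 0.0789). Kidneys showed overlapping or near values. Six2 kidneys stood at 42.4 and 35.2 CPM in ENL-WT, at 38.1 and 34.4 CPM in ENL-T1 and 44.6 and 43.9 CPM in ENL-T3, and Foxd1 kidneys at 55.6, 44.4 and 47.3 CPM in ENL-WT and 49.9, 58.7 and 57.7 CPM in ENL-T1. Between ENL-T3 and ENL-T1 the log2 difference of Gli1 was 0.29 (95% interval 0.06 to 0.51), with an adjusted p of 0.626, and these 2 groups also differed in sex.

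Gli2, the main activator of the family, rose beside Gli1 in sorted Six2 cells. At E14.5 it stood at 6.92, 7.63 and 8.56 CPM in ENL-WT and at 15.5, 14.2 and 19.7 CPM in ENL-T1, 2.16-fold higher (log2 fold change 1.11 ± 0.140, adjusted p = 0.00166, edgeR quasi-likelihood test, Benjamini-Hochberg adjusted). At E18.5 it stood at 6.18, 4.93 and 5.99 CPM in ENL-WT and at 9.14, 8.22 and 9.16 CPM in ENL-T1, 1.56-fold higher (0.64 ± 0.130, adjusted p = 0.0032). No libraries overlapped between genotypes at either stage. The E18.5 call depended on ENL-WT replicate 2, without which the log2 fold change was 0.54 and the fold under 1.5. In kidneys Gli2 was not called, though no mutant library overlapped the controls. It stood at 24.2 and 31.6 CPM in Six2 ENL-WT kidneys, 34.5 and 35.4 CPM in ENL-T1 and 36.6 and 36.3 CPM in ENL-T3. For ENL-T3 the 1.30-fold difference had an adjusted p of 0.0641, and without ENL-WT replicate 2 it was called (log2 fold change 0.61, adjusted p = 0.00136). Foxd1 kidneys ranged from 27.2 to 27.5 CPM in ENL-WT and from 29.2 to 31.7 CPM in ENL-T1, a 1.13-fold difference (adjusted p = 0.0391, same test). Sorted Foxd1 cells overlapped, at 44.6 to 51.3 CPM in ENL-WT and 39.5 to 58.7 CPM in ENL-T1.

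Gli3, best known for its repressor form, was called in no comparison of genotypes. In sorted Six2 cells at E14.5 it stood at 77.5, 71.2 and 59.9 CPM in ENL-WT and at 54.1, 63.8 and 67.5 CPM in ENL-T1, overlapping values. At E18.5 it stood at 93.4, 108.9 and 110.7 CPM in ENL-WT and at 125.4, 128.5 and 133.5 CPM in ENL-T1. The E18.5 groups did not overlap, and the 1.24-fold difference (adjusted p = 0.00682, edgeR quasi-likelihood test, Benjamini-Hochberg adjusted) was under the fold threshold. The same held in Foxd1 kidneys, at 36.3, 36.6 and 37.2 CPM in ENL-WT and 48.2, 46.2 and 46.7 CPM in ENL-T1, a 1.28-fold difference (adjusted p = 0.00021, same test). In Six2 kidneys Gli3 ranged from 47.2 to 60.5 CPM in ENL-WT and from 61.7 to 67.2 CPM in the mutants, with no call. In control cells of the Six2 lineage Gli3 was higher at E18.5 than at E14.5 by 0.59 on the log2 scale (adjusted p = 9.95e-05, same test), short of the 2-fold threshold used for stages. Sorted Foxd1 cells overlapped, at 41.2 to 58.0 CPM in ENL-WT and 40.3 to 50.7 CPM in ENL-T1.

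The summed stromal markers were higher in sorted Six2 ENL-T1 cells, as were Hhip, Gli1 and Gli2. Within E14.5 ENL-T1, the library with the highest sum had the lowest Hhip, the highest Gli1 and the middle Gli2. The library with the lowest sum had the lowest Gli1, the lowest Gli2 and the middle Hhip. The summed level of 7 markers was 497.8 to 638.8 CPM in E14.5 controls and 910.8 to 1768 CPM in E14.5 ENL-T1 cells, with 5 called higher and 1 lower, and 325.1 to 556.8 CPM in E18.5 controls and 789 to 910.4 CPM in E18.5 ENL-T1 cells, with 4 higher and 2 lower. Pdgfra was at 8.67, 13.2 and 14.04 CPM in E14.5 controls and at 54.8, 32.6 and 66.0 CPM in E14.5 ENL-T1 cells, whereas Foxd1 went from 134.6, 159.5 and 139.2 CPM to 94.2, 66.3 and 59.5 CPM. Foxd1 thus stood higher in these E14.5 controls than in sorted E18.5 Foxd1 ENL-WT cells, which differ from them in stage, run and number of working Foxd1 alleles. At E18.5, Foxd1 and Tcf21 of the stromal list were both lower in ENL-T1. In sorted Foxd1 ENL-WT cells the same 7 markers summed to 6625 to 8481 CPM. In the same ENL-T1 libraries the nephron progenitor markers fell, 5 of 5 at each stage, from 1619 to 1895 CPM summed to 803 to 994.6 CPM at E14.5, and all 5 podocyte markers fell at E18.5, by the values given with Ihh. The 6 smooth muscle markers summed to 174.8 to 216.7 CPM in E14.5 controls and 115.2 to 132.9 CPM in ENL-T1, with 1 called higher and 1 lower. The sum fell although 5 of the 6 log2 fold changes were positive and 1 negative, with a median of 1.23. At E18.5 the smooth muscle markers summed to 102.7 to 116.2 CPM in controls and 110.9 to 140.1 CPM in ENL-T1, with 3 higher and 1 lower. Here too 5 log2 fold changes were positive and 1 negative, with a median of 0.76. The part of the stromal, smooth muscle, progenitor and podocyte markers in the Hhip, Gli1 and Gli2 results was not tested.

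**Figure D4:**
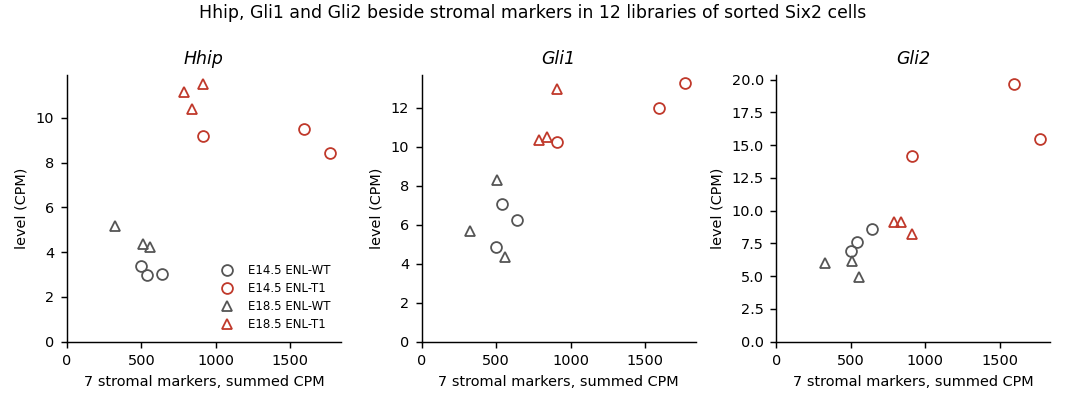
Hhip, Gli1 and Gli2 in CPM against the summed CPM of 7 stromal markers in the 12 sorted Six2 libraries, with 1 point per library and colours for genotype and stage. The ENL-T1 libraries lie at 789 to 1768 CPM of summed markers and the controls at 325.1 to 638.8 CPM.

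Between lineages, 3 of 6 tested members were higher in sorted Foxd1 than in sorted Six2 control cells at E18.5 and 0 were lower, against 27.2% and 28.2% of all tested genes. Gli2 was 9.56-fold higher (log2 difference 3.26 ± 0.128, adjusted p = 8.3e-16), Gli1 4.84-fold higher (adjusted p = 2.48e-10) and Hhip 4.33-fold higher (adjusted p = 6.46e-11), all by the edgeR quasi-likelihood test, Benjamini-Hochberg adjusted. Gli3 ran the other way, 1.91-fold lower (adjusted p = 2.2e-08) and just under the 2-fold threshold, and Smo was 1.39-fold lower. Ptch1 differed by 0.03 on the log2 scale (95% interval -0.13 to 0.18), a sign that turned with library-size scaling. The lineages were sequenced in different runs with different read lengths and at different depth, so lineage and run cannot be told apart in these levels. Sex also differed in part with lineage, since the sorted Foxd1 libraries were all male and the sorted Six2 groups held both sexes.

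The ENL-T1 effect at E18.5 differed between the lineages for 3 of 6 tested members at an adjusted p under 0.05, against 15.9% of all genes. For Hhip the effect in sorted Foxd1 cells minus that in sorted Six2 cells was -1.21 ± 0.215 on the log2 scale (adjusted p = 0.000358), for Ptch1 -0.50 ± 0.105 (adjusted p = 0.00203) and for Gli2 -0.57 ± 0.167 (adjusted p = 0.0227), by the edgeR quasi-likelihood test, Benjamini-Hochberg adjusted. In each case the effect was more positive in the Six2 lineage. The Gli2 difference was lost without Six2 ENL-T1 replicate 3 (-0.54, adjusted p = 0.0506) or Six2 ENL-WT replicate 2 (-0.47, adjusted p = 0.0685). Gli1, with -0.57 and an adjusted p of 0.137, and Gli3, with -0.41 and an adjusted p of 0.0659, were not called. Without Six2 ENL-WT replicate 1 Gli1 was called (-0.85, adjusted p = 0.00488). Gli3 was called by DESeq2 (adjusted p = 0.0407), by library size (adjusted p = 0.0184) and without Foxd1 ENL-WT replicate 1, Foxd1 ENL-WT replicate 3 or Foxd1 ENL-T1 replicate 1 (adjusted p of 0.0262, 0.0353 and 0.0325). Between stages within the Six2 lineage, 1 of 7 members, Ihh, had a different ENL-T1 effect, against 8.16% of all genes. Gli3 differed by 0.48 on the log2 scale with an adjusted p of 0.0529, and Gli2 by -0.46 with an adjusted p of 0.185.

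A further 36 hedgehog genes were followed in 4 lists: 7 for ligand production and release, 5 for reception, 15 for signal transduction and 9 reported targets. In Six2 kidneys 35 were tested and 2 were called lower in ENL-T1, Foxf1 and Dhh, and 1 in ENL-T3, Foxf1, beside 4.88% and 5.28% of all genes. The median log2 fold change of the 35 was 0.03 in ENL-T1 and 0.02 in ENL-T3, beside -0.01 and -0.0021 over all genes. Foxf1, a mesenchymal target gene, stood at 1.35 and 1.27 CPM in ENL-WT, at 0.528 and 0.450 CPM in ENL-T1 and 0.477 and 0.655 CPM in ENL-T3. Dhh, the Desert hedgehog ligand gene, which shares 25.2% of its exon length with other genes, stood at 1.57 and 1.36 CPM in ENL-WT, at 0.821 and 0.823 CPM in ENL-T1 and 1.22 and 1.07 CPM in ENL-T3. Foxf1 and Dhh in ENL-T1 lay below both controls. No gene of the transduction list, which includes Sufu, Kif7 and genes of the primary cilium, was called in any of the 6 comparisons of a mutant with its control. Over all genes 2.65% to 6.14% were called higher and 2.18% to 7.53% lower in these comparisons.

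In sorted Six2 cells at E14.5, 34 of the 36 were tested, 4 rose and 3 fell, against 4.11% and 2.28% of all genes, with a median of 0.03 beside 0.0035 over all genes. Scube2, whose product helps release the ligand, rose from 0.0936, 0.186 and 0.298 CPM to 1.24, 0.647 and 1.76 CPM. Scube1, Foxl1 and Ccnd2 rose 1.79-fold, 2.03-fold and 1.78-fold. Gas1, a coreceptor gene sharing 19.9% of its exon length with other genes, fell from 813.7, 969.7 and 723.3 CPM to 489.3, 495.5 and 471.7 CPM. Disp1, needed for ligand release, fell 1.63-fold and Bcl2 1.91-fold. At E18.5, 35 were tested, 4 rose and 0 fell, against 6.14% and 5.54% of all genes. The 4 include Foxf2, which passed the count filter only through the ENL-T1 libraries where it was higher, so its place in the count carries no weight. Ccnd2, a cell cycle gene, rose from 172.1, 188.8 and 172.9 CPM to 482.6, 517 and 534.2 CPM, Scube2 rose 2.70-fold and Ccnd1 1.59-fold. Foxf2 stood at 0, 1 and 3 counts in ENL-WT and 16, 35 and 11 counts in ENL-T1. No control library of Foxf2 exceeded the floor of 3 counts.

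In sorted Foxd1 cells 32 of the 36 were tested, 1 rose and 2 fell, against 3.63% and 2.18% of all genes. Scube2 rose from 9.53, 2.95, 6.10 and 5.47 CPM to 16.0, 16.8, 11.6 and 17.6 CPM. Gpc3, a glypican gene, fell 1.66-fold and Mycn 1.63-fold, with values that did not overlap. In Foxd1 kidneys 35 were tested and 1, Disp2, was called higher, against 2.65% of all genes, at 0.197, 0.0638 and 0.214 CPM in ENL-WT and 0.238, 0.412 and 0.829 CPM in ENL-T1. The median of the 35 was 0.14 in log2, beside -0.0034 over all genes, and 29 were positive and 6 negative. From E14.5 to E18.5 in control Six2 cells, 15 of 36 passed the stage thresholds, 8 higher and 7 lower, against 24.8% and 20.6% of all genes, which is close to the background.

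**Figure D5:**
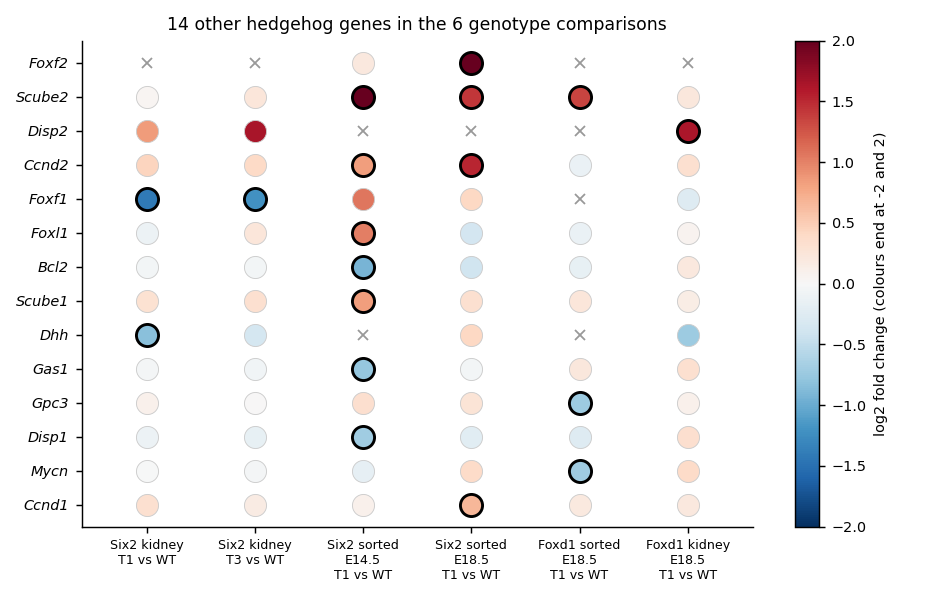
Log2 fold change of the 14 other hedgehog genes called in at least 1 of the 6 comparisons of a mutant with its control. Colour shows the change, a black ring marks genes called and a cross marks genes not tested. Rings are most frequent in sorted Six2 cells at E14.5, with 7 genes, and no transduction gene is among the genes drawn.

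Likeness to each member was measured as Pearson's r of log2 CPM over the 32 libraries, after removing the mean of each table, among 12538 genes that passed the count filter in all 4 tables. Genotype, stage and table depth are shared by these points, so the values are descriptions. The mean was removed per table and not per stage, so the difference between E14.5 and E18.5 in sorted Six2 cells remains in them. Ptch1 differed 3.04-fold between these stages in control cells, so its values carry that difference in particular. Ptch1 was most like Ago1 (r = 0.991), Itpkb (0.987) and Cep350 (0.986), and Hhip was most like Angpt2 (0.900), Hoxd8 (0.838) and Adh1 (0.788). Gli1 was most like Ndp (0.838), Gabra3 (0.837) and Islr (0.832), Gli2 most like Smoc2 (0.917), Cd248 (0.907) and Arap1 (0.904), and Gli3 most like Thrap3 (0.936), Ctnna1 (0.932) and Pds5b (0.928). Smo was most like Usp22 (0.881), Foxp4 (0.872) and Ctxn1 (0.858). Among the members themselves the highest values were between Ptch1 and Gli3 (0.848), Gli1 and Gli2 (0.650) and Hhip and Gli1 (0.648), and the lowest was between Ptch1 and Smo (-0.657). Shh and Ihh did not pass the filter in all tables and have no profile.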

How the data were processed

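Poly(A) RNA of 32 mouse libraries was sequenced, from whole kidneys with a stranded mRNA kit and from sorted cells with SMART-seq v4. The authors aligned reads to mm10 with HISAT2 and counted them by gene with HTSeq, ignoring strand, and deposited raw counts, a table for each of the 4 sets. The annotation release was not given in the sources used here, and symbols, exon lengths and positions came from GENCODE release M21, which held 55536 of the 55806 identifiers.

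The 8 genes and all lists were chosen with earlier results of these data known. Counts were filtered with filterByExpr (minimum count 10, total 15), scaled by TMM and tested with edgeR 4.0.16 (quasi-likelihood test, R 4.3.3), with Benjamini-Hochberg adjustment over all tested genes. Six2 kidneys formed 1 fit of 6 libraries, the stage comparison 1 fit of 12 and the lineage comparison 1 fit of 14. The authors' own genotype thresholds were used, a 1.5-fold change with an adjusted p under 0.05. The test was checked on simulated counts. Named were all 8 genes, the other hedgehog genes called in at least 1 genotype comparison (14 genes) and the 3 genes most like each member. Alternatives were DESeq2 1.42.0, other scalings, filters and fits, replicates left out, a replicate block and, chosen after seeing the data, sex as a covariate. No pair among 33 within groups agreed within counting error (median chi-square over its expectation 1.25 to 14.8). No source ties libraries to separate animals, so p-values measure only the spread between libraries. The floor of 3 counts covers counting error only. Figures were drawn with matplotlib 3.10.9.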

Additional observations from a re-analysis of the deposited data

Results flagged for a closer look

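Gli1 in sorted Foxd1 ENL-T1 cells held a library far from the other 3, at 37.63 CPM in replicate 1, where the gap to the nearest library took 0.937 of the whole range of the group. Among the 12 sets of 4 libraries checked, chance alone flags about 1 in 20.

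The ENL-T1 effect on Ihh differed between E14.5 and E18.5 in sorted Six2 cells by -3.376 on the log2 scale (adjusted p = 0.00693, edgeR quasi-likelihood test, Benjamini-Hochberg adjusted), with 3 of 3 ENL-T1 libraries below all controls at E18.5 and overlapping values at E14.5. The ENL-T1 effect at E18.5 differed between sorted Foxd1 and sorted Six2 cells for Hhip by -1.214 (adjusted p = 0.000358), for Ptch1 by -0.4985 (adjusted p = 0.00203) and for Gli2 by -0.5687 (adjusted p = 0.0227), by the same test. Beside these differences, all 5 macrophage markers were higher in sorted Foxd1 ENL-T1 cells, 4 of them called, from 63.8 to 153.6 CPM summed to 152 to 214.3 CPM. In sorted E18.5 Six2 ENL-T1 cells all 5 were higher too, 3 of them called. The part of these markers was not tested.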

How the results depend on the processing

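Of the log2 fold changes recomputed under an alternative, 1280 kept their direction and their side of the threshold, 29 passed it in addition, 7 missed it and 38, none of them called in the main analysis, turned sign. The number of members called in Foxd1 kidneys went from 1 to 0 with library-size scaling (Hhip -0.58), to 4 with no fold threshold (3300 higher and 3432 lower of 20145 genes), and to 0 in 3 of the 6 settings with a replicate left out (0 to 1 over all 6). Stage calls went from 2 to 5 and lineage calls from 3 to 5 with no fold threshold, where 7915 and 5699 genes were higher and 8235 and 6249 lower of 25222 and 14869 tested, the latter also to 5 with no count filter. The stage interaction gave 2 members in place of 1 (Ihh and Gli3) with DESeq2, genes over 1 CPM, library-size scaling or no count filter, and 1 to 3 with a replicate left out.

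Of the values that turned sign, Ptch1 between lineages was -0.028 with genes over 1 CPM, -0.078 by library size and -0.31 with no count filter (all genes shifted by -0.34), and -0.016 to 0.080 with a replicate left out. With sex as a covariate, chosen after seeing the data, Six2 kidneys kept their direction for Ihh (-2.64 in ENL-T1 and -1.77 in ENL-T3) and Hhip (-1.63 and -0.80). ENL-T1 against ENL-WT then gave 0.00037 for Ptch1 and 0.022 for Shh, and ENL-T3 against ENL-T1 gave -0.33 for Gli2 and -0.39 for Shh. ENL-T1 kidneys were all male and ENL-T3 kidneys all female, so the sex effect came from the ENL-WT kidneys alone. Each mutant was thus set against the ENL-WT kidney of its own sex. Between the mutants, genotype and sex cannot be told apart. At E14.5, Ptch1 was 0.021 by library size, and Smo -0.00084 by DESeq2, -0.00085 by relative log expression factors and -0.015 with all 12 libraries in 1 fit. Gli1 between stages was -0.12 by library size (all genes shifted by -0.14, and by 0.13 with DESeq2).

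With a replicate left out, Six2 kidney ENL-T1 ranged for Gli1 from -0.20 to 0.045, Ptch1 from -0.17 to 0.023 and Shh from -0.50 to 0.045, and ENL-T3 for Shh from -0.37 to 0.17. ENL-T3 against ENL-T1 ranged for Ihh from -0.042 to 0.84 and Smo from -0.046 to 0.0076. A group of 2 then holds 1 library, assumed to vary like the others. E14.5 ranged for Ptch1 from -0.11 to 0.053 and Smo from -0.014 to 0.011, and sorted Foxd1 cells for Gli3 from -0.14 to 0.033, Hhip from -0.025 to 0.17 and Smo from -0.054 to 0.020. Gli1 ranged from -0.24 to 0.25 between stages and from -0.34 to 0.16 in the stage interaction. The cause was not tested.

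Same-numbered replicates did not pair (correlation of deviations -0.0791 to 0.0997). With a replicate block the lineage interaction called 4 members in place of 3, with Gli3 at -0.41, Gli1 between stages was -0.0025, and the other counts of members did not change. By library size, calls of the lineage interaction split into 935 higher and 1555 lower in place of 1226 and 1135, and of the stage interaction into 1268 and 882 in place of 995 and 1064. Without E18.5 ENL-WT replicate 2 the latter were 453 and 874. Depth limits Shh and Ihh in sorted Foxd1 cells, at or near 3 counts.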
